A study of Mus musculus with 5 samples.

Results

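The genes described here encode Mincle (Clec4e) and the lectin receptors beside it, together with the adaptor and kinase pathway they signal through. They were chosen as the rows of the count matrix whose symbol is Clec4e, Clec4d, Clec4n, Clec4a1, Clec4a2, Clec4a3, Clec7a, Fcer1g, Syk or Card9. Of these 10 listed genes, 9 were analysed, out of 32285 genes in the matrix, and Clec7a was not analysed here.

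C-type lectin receptors on myeloid cells bind sugars and glycolipids of microbes and ligands released from dying cells. Mincle (Clec4e), MCL (Clec4d) and Dectin-2 (Clec4n) carry no activating motif of their own and pair with the Fc receptor gamma chain, encoded by Fcer1g, whose immunoreceptor tyrosine-based activation motif (ITAM) recruits the kinase Syk. Syk signals through Card9 to NF-kB and cytokine genes. The Clec4a genes encode DCIR family lectins, of which Clec4a2 (DCIR1) carries an inhibitory motif.

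The cells came from kidneys of male C57BL/6J mice, bought at 6 to 8 weeks of age, after a sham operation or after unilateral ischemia-reperfusion (UIR), in which the left renal pedicle was clamped for 35 min while the right kidney was left intact. Kidneys were taken at day 1, day 3, day 14 or day 28 after UIR, and each of these 4 groups and the sham group is 1 sample in the labels. There were 3 mice per kidney sample. The methods count 15 matrices, 12 of UIR and 3 of control samples, whereas the labels list 5 samples, so how mice relate to captures is not settled. The 10x 3′ chemistry was used, in which each unique molecular identifier (UMI) counts a transcript by its 3′ end.

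The deposited matrix merges 5 libraries, told apart by a number at the end of each barcode that the labels do not tie to sham or to a day. The cells were therefore treated as 1 pooled sample, no test was run, and no value is given by time point. Libraries are named by number only. After cell calling and filtering, 57511 cells were kept, between 8248 and 18892 per library, with library medians of 4038 to 5338.5 UMIs per cell. A barcode sequence was kept in more than 1 library 350 times, and 33 of the myeloid cells used below were among those barcodes. In the labels the cell type is goblet cell, a mucus cell of the gut. Of 6 goblet cell genes (Muc2, Tff3, Fcgbp, Spink4, Clca1 and Zg16) no kept cell held 3 or more, and 2 cells held at least 2.

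Levels are CPM, the UMIs of a gene scaled to a fixed total of UMIs in the class, with an exact Poisson 95% interval. Ratios of levels are on the log2 scale, and their 95% intervals come from the exact binomial distribution given both counts. These intervals cover counting error only, not differences between mice or libraries, and treat UMIs as independent. Cells were placed in classes by marker genes, with no member among the markers. This gave 1186 neutrophils and 1929 mononuclear phagocytes (monocytes, macrophages and dendritic cells), beside T cells, NK cells, B cells, stromal cells and 45640 tubule cells. The 1929 include 69 cells in no finer class, led by the immunoglobulin genes Ighg1 (19290 CPM) and Igkc (17020 CPM). Their part in the pooled phagocyte values was not tested. Neutrophil markers summed to 88090 CPM in neutrophils and 178 CPM in mononuclear phagocytes, and phagocyte markers to 1690 and 32410 CPM. The same marker lists set the gates, so these sums describe the gating and are no separate check of it. A further 1686 cells carried markers of more than 1 lineage and were left out, 530 of them cells with neutrophil markers and tubule transcripts over the limit.

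The 6 lectin genes lie in 1 cluster on chromosome 6 of GRCm38, between positions 122921848 and 123289870, a span of 368 kb (GENCODE vM21). From the centromeric end their order is Clec4a1 (122921848 to 122934619), Clec4a3 (122952515 to 122969875), Clec4a2 (123106428 to 123143999), Clec4n (123229843 to 123247021), Clec4d (123262111 to 123275265) and Clec4e (123281789 to 123289870). Clec4e is on the minus strand and the other 5 on the plus strand. Clec4d and Clec4e are the closest pair of neighbours, with 6.52 kb between the ends of the genes. The partner genes lie elsewhere: Fcer1g on chromosome 1 (171229572 to 171234365, minus strand), Syk on chromosome 13 (52583173 to 52648792, plus strand) and Card9 on chromosome 2 (26352176 to 26360918, minus strand).

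The lectins are related genes, so their transcripts were compared in windows of 50 bases. Windows shared with another gene made up 6.69% of Clec4a2, or 8.96% in the last 500 bases of its transcripts. Over its whole transcripts the genes sharing most windows were Clec4a4, Clec4b1, Sri and Nr2f2. Which genes share the windows of the last 500 bases was not recorded. For Clec4n the shared part was 0.686% (shared with Gm44147). None of the windows of Clec4e, Clec4d, Clec4a1, Clec4a3, Fcer1g, Syk or Card9 was shared with another gene. Clec4a2 had the largest shared part of the 9 genes. Of the genes it shares windows with, Clec4a4 was at 0.208 CPM and Clec4b1 at 77.9 CPM in mononuclear phagocytes, and Clec4b1 was at 207 CPM in cDC2.

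RefSeq (GRCm38.p6) start-site sequences were at hand for 8 of the 9 genes. The 250 bases before the start are shown for the genes at either end of the cluster, because Clec4e and Clec4d turned out to be the most neutrophil-biased members and Clec4a1 and Clec4a3 the least. Capitals mark matches on either strand to the C/EBP motif TTGNNCAA, the AP-1 motif TGANTCA, the PU.1 motif GAGGAAGT, the TATA box TATAAA, or the NF-kB and IRF motifs.
Clec4e (chr6:123289872-123290121, minus strand): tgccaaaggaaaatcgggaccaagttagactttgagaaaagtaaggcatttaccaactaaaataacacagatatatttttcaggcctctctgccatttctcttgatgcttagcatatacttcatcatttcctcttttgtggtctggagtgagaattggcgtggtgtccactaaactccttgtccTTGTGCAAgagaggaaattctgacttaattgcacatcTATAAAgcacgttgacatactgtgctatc
Clec4d (chr6:123261857-123262106, plus strand): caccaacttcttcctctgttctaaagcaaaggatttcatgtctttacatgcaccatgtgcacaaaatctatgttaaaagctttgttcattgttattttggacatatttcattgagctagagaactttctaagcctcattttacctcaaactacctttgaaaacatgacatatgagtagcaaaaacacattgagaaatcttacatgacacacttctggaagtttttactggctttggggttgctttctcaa
Clec4a1 (chr6:122921598-122921847, plus strand): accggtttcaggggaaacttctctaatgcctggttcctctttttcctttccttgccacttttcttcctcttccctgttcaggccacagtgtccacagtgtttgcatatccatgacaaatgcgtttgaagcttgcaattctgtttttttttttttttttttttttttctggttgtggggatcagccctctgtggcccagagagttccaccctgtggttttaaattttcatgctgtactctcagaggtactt
Clec4a3 (chr6:122952265-122952514, plus strand): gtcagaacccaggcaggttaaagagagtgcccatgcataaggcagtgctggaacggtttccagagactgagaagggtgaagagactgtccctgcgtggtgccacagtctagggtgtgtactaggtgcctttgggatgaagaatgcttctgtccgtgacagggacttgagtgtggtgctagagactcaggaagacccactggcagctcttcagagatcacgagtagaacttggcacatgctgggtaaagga
The Clec4e sequence held a C/EBP match, TTGTGCAA, at positions −66 to −59 from the start, and a TATA box at −29 to −24, and these do not overlap. A C/EBP match was found in 5.65% and a TATA box in 12.4% of the 32851 mouse start-site sequences of this length. The other 3 sequences shown held no match to the 6 motifs. The remaining motifs were found in 6.75% (AP-1), 1.41% (NF-kB), 2.44% (PU.1) and 2.98% (IRF) of all sequences. A match describes letters only and does not show a binding site.

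All 9 genes were far higher in myeloid cells than in kidney tubule cells. Over neutrophils and mononuclear phagocytes together, Clec4e was at 322.9 CPM, Clec4d at 265 CPM, Clec4n at 234 CPM, Fcer1g at 2673 CPM, Syk at 121 CPM and Card9 at 11.8 CPM. In tubule cells Clec4e was at 0.742 CPM, Fcer1g at 4.72 CPM, Syk at 0.346 CPM and Card9 at 0.0478 CPM. The log2 ratio lay between 7.95 for Card9 (7.13 to 8.89) and 9.15 for Fcer1g (9.07 to 9.23). By a rule of at least 2-fold with at least 10 CPM in 1 of the classes, 9 of 9 members were higher in myeloid cells, against 21.2% of the 9042 genes that could be compared, and 28.5% of genes were lower. The median log2 ratio of the members was 8.77 and that of all genes compared was −0.21.

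Droplets without a cell held the same transcripts at low levels. In the ambient profile Clec4e was at 0.927, 17.8, 6.34, 3.07 and 0 CPM in libraries 1 to 5, and Fcer1g at 65.5, 101, 32.2, 34.2 and 2.70 CPM. Thinned to 1000 UMIs per cell, 0.0819% of tubule cells had a Clec4e UMI and 0.486% a Fcer1g UMI, against 27.5% and 87.2% of myeloid cells. The median depth before thinning was 5199 UMIs in tubule cells and 2457 UMIs in myeloid cells. The tubule level of each lectin, of Fcer1g and of Syk was under its ambient level in each of libraries 1 to 4. Whether these tubule UMIs came from free RNA was not tested. For Card9 the ambient profile held at most 3 UMIs per library, too few for that comparison.

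The plot of levels by class shows that the members do not share 1 pattern within the myeloid cells. Mincle, MCL and Dectin-2 were highest in neutrophils, Clec4a1 and Clec4a3 in monocytes, and Fcer1g was at nearly the same level in most myeloid classes.

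**Figure D1:**
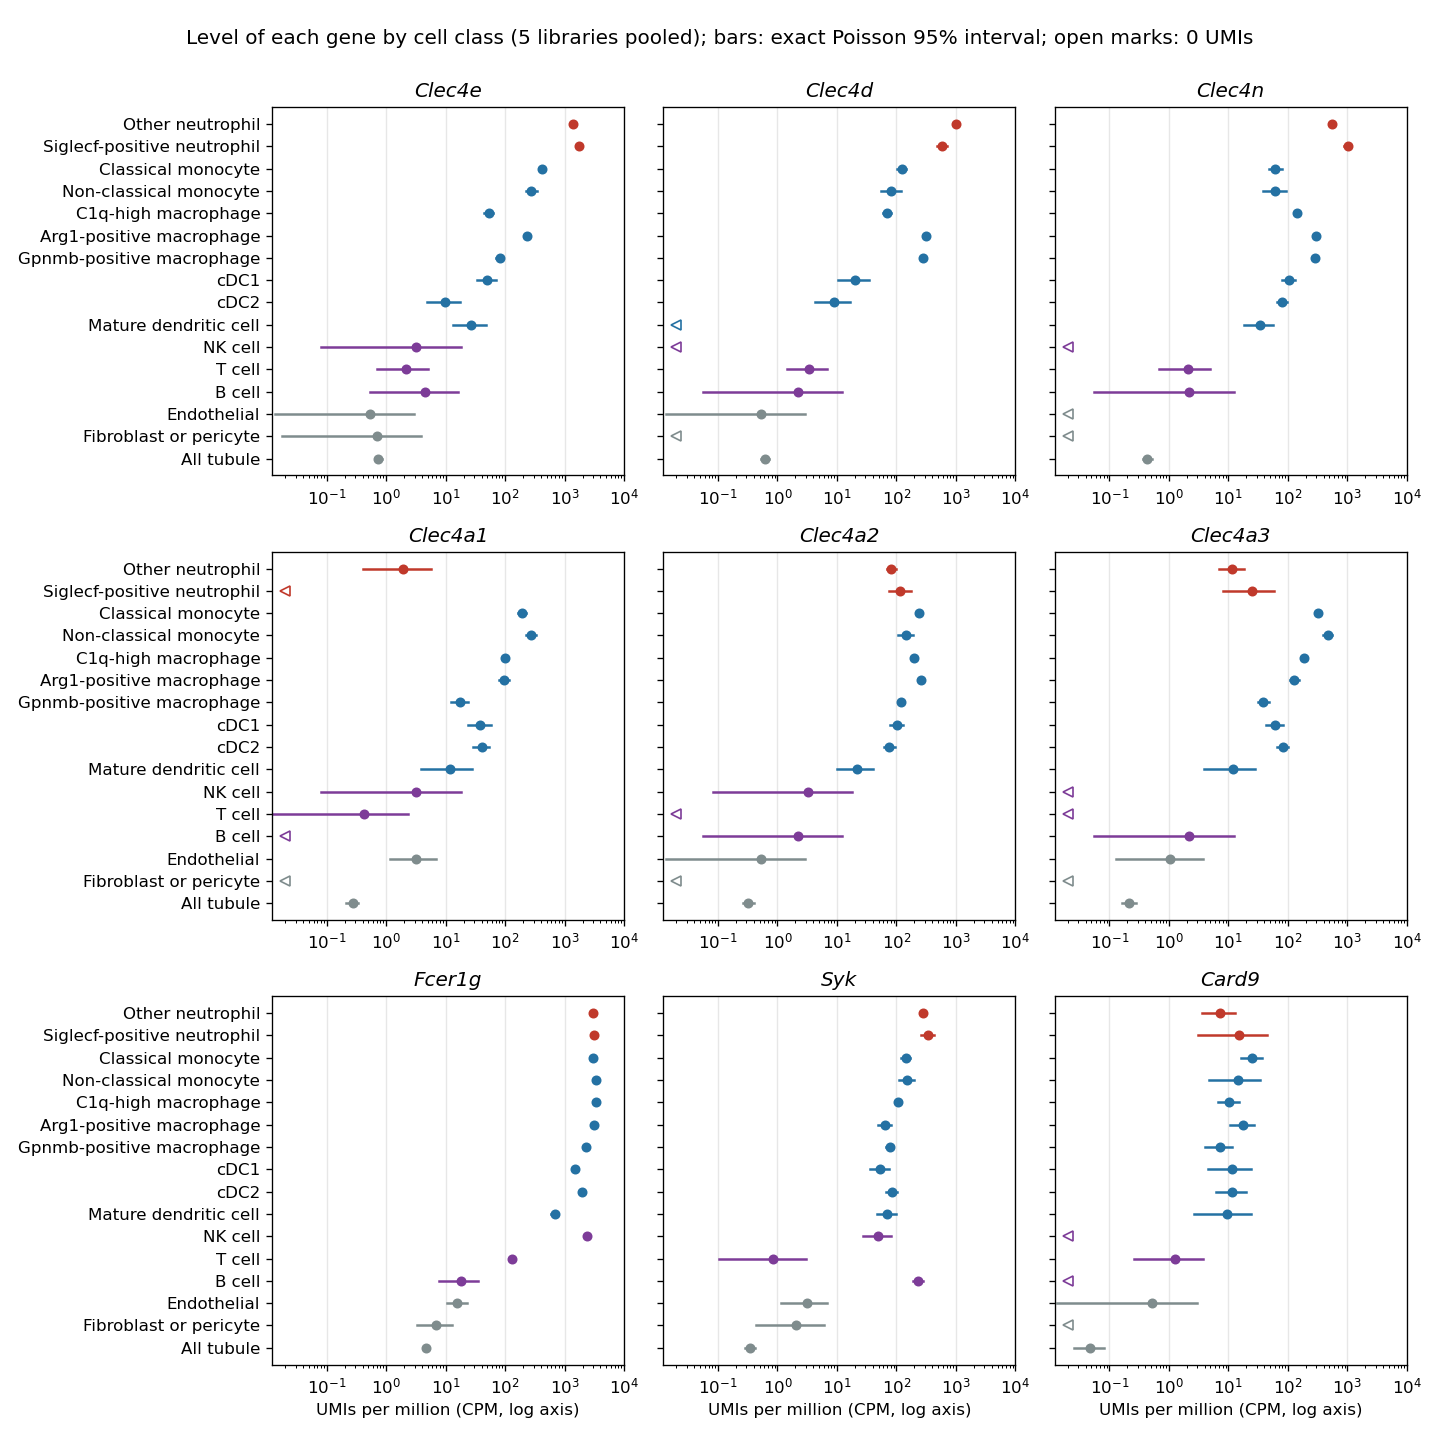
Each panel plots 1 gene, with CPM on a log axis and 16 cell classes as rows (red, neutrophils; blue, mononuclear phagocytes; purple, lymphocytes; grey, other kidney cells), bars giving the exact Poisson 95% interval and open triangles a count of 0 UMIs. Clec4e, Clec4d and Clec4n were highest in the red rows, Clec4a1 and Clec4a3 in monocytes, Fcer1g was also high in NK cells (2381 CPM) and Syk in B cells (229 CPM).

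Mincle was the member with the largest excess in neutrophils. Clec4e was at 1437 CPM (1381 to 1495) in neutrophils and 121 CPM (115 to 129) in mononuclear phagocytes, a log2 ratio of 3.57 (3.46 to 3.67). Within libraries 1 to 4 neutrophils held 836, 1958, 979 and 1192 CPM of Clec4e, and mononuclear phagocytes 40.4, 85.9, 221 and 118 CPM. The lowest neutrophil value lay above the highest phagocyte value, and the ratio was smallest in library 3 (log2 2.15), where phagocyte Clec4e was highest. Library 5 held 2 neutrophils and gave no neutrophil value. After thinning to 1000 UMIs, 62.3% of neutrophils (59.1 to 65.5) and 10.3% of mononuclear phagocytes (8.93 to 11.8) had a Clec4e UMI. Unthinned shares were 67.5% at a median depth of 1281.5 UMIs and 23.3% at 3934 UMIs.

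MCL, which forms a complex with Mincle, followed the same order. Clec4d was at 959.9 CPM (914.4 to 1007) in neutrophils and 139 CPM in mononuclear phagocytes, a log2 ratio of 2.78 (2.68 to 2.89). Neutrophils of libraries 1 to 4 held 774, 1414, 570.4 and 622 CPM and phagocytes 48.3, 180.1, 176 and 112 CPM of Clec4d. The 2 sets of libraries did not overlap, and the ratio within libraries lay between log2 1.70 in library 3 and 4.00 in library 1.

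Dectin-2, a receptor for fungal mannans, was also higher in neutrophils, but not in every library. Clec4n was at 601 CPM in neutrophils and 167 CPM in mononuclear phagocytes, a log2 ratio of 1.85 (1.73 to 1.96). In libraries 1, 2 and 4 neutrophils held 666, 1008 and 622 CPM of Clec4n, against 106 CPM in library 3. Mononuclear phagocytes held 125, 195, 153 and 201 CPM in libraries 1 to 4. The order was thus turned in library 3, at −0.53 on the log2 scale, and the values of the classes overlapped. Without library 2 the pooled ratio was 0.85, under the 2-fold limit. Neutrophils of library 3 were not shallow (median 1415 UMIs, against 877 to 1287 in libraries 1, 2 and 4), and their neutrophil markers summed to 115700 CPM, against 62720 to 74880 CPM. Tubule markers summed to 8718 CPM in these cells, and to 2476, 3593 and 12670 CPM in neutrophils of libraries 1, 2 and 4. The part of these differences in the Clec4n level was not tested.

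Clec4a1 and Clec4a3 ran in the other direction. Clec4a1, which had 3 UMIs in all neutrophils, was at 1.73 CPM there and 80.6 CPM in mononuclear phagocytes (log2 ratio −5.55, −7.83 to −3.99). Clec4a3 was at 13.2 CPM in neutrophils and 142 CPM in mononuclear phagocytes (log2 ratio −3.42, −4.08 to −2.83). Within libraries 1 to 4 neutrophil Clec4a3 was between 7.92 and 31.0 CPM and phagocyte Clec4a3 between 98.9 and 198 CPM, without overlap. Clec4a2, the inhibitory DCIR1, was at 86.3 CPM in neutrophils and 159 CPM in phagocytes. Its log2 ratio of −0.88 (−1.13 to −0.64) did not reach the 2-fold limit, and lay between −1.71 in library 3 and −0.31 in library 4. Clec4e and Clec4d, which lie side by side at one end of the cluster, were both higher in neutrophils, and Clec4a1 and Clec4a3, side by side at the other end, were both lower.

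Of the partners of the receptors, Syk was past 2-fold in the pooled cells and Fcer1g and Card9 were not. Fcer1g, the adaptor of Mincle, MCL and Dectin-2, was at 2984 CPM in neutrophils and 2617 CPM in mononuclear phagocytes, a log2 ratio of 0.19 (0.15 to 0.23). Within libraries 1 to 4 that ratio was 0.02, 0.63, −0.29 and 0.04, so the sign differed between libraries. Syk was at 285 CPM in neutrophils and 91.8 CPM in phagocytes (log2 ratio 1.63, 1.47 to 1.79). Neutrophils of libraries 1 to 4 held 248, 412, 139.9 and 277 CPM of Syk. These values lay above the range of the whole mononuclear phagocyte class, 61.8 to 120.1 CPM over 5 libraries. The Syk ratio in libraries 1 to 4 was log2 1.54, 1.78, 0.97 and 1.75, so library 3 was under the 2-fold limit. Single phagocyte classes reached higher levels in library 2, at 306.9 CPM in classical and 199.7 CPM in non-classical monocytes. Both were under neutrophils of library 2 but above neutrophils of library 3. The classical monocyte value, 27 UMIs in 27 cells, was also above neutrophils of libraries 1 and 4. Card9, the scaffold downstream of Syk, was low throughout, at 8.05 CPM (14 UMIs) in neutrophils and 12.5 CPM (120 UMIs) in phagocytes. Its log2 ratio of −0.63 had an interval of −1.55 to 0.17, so a difference was not detectable at this depth. Card9 was called lower without library 4 (−1.25) and with cells of 2 lineages kept (−1.36), where Fcer1g stood at −0.44. The Fcer1g ratio was also below 0 without library 2 (−0.17).

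**Figure D2:**
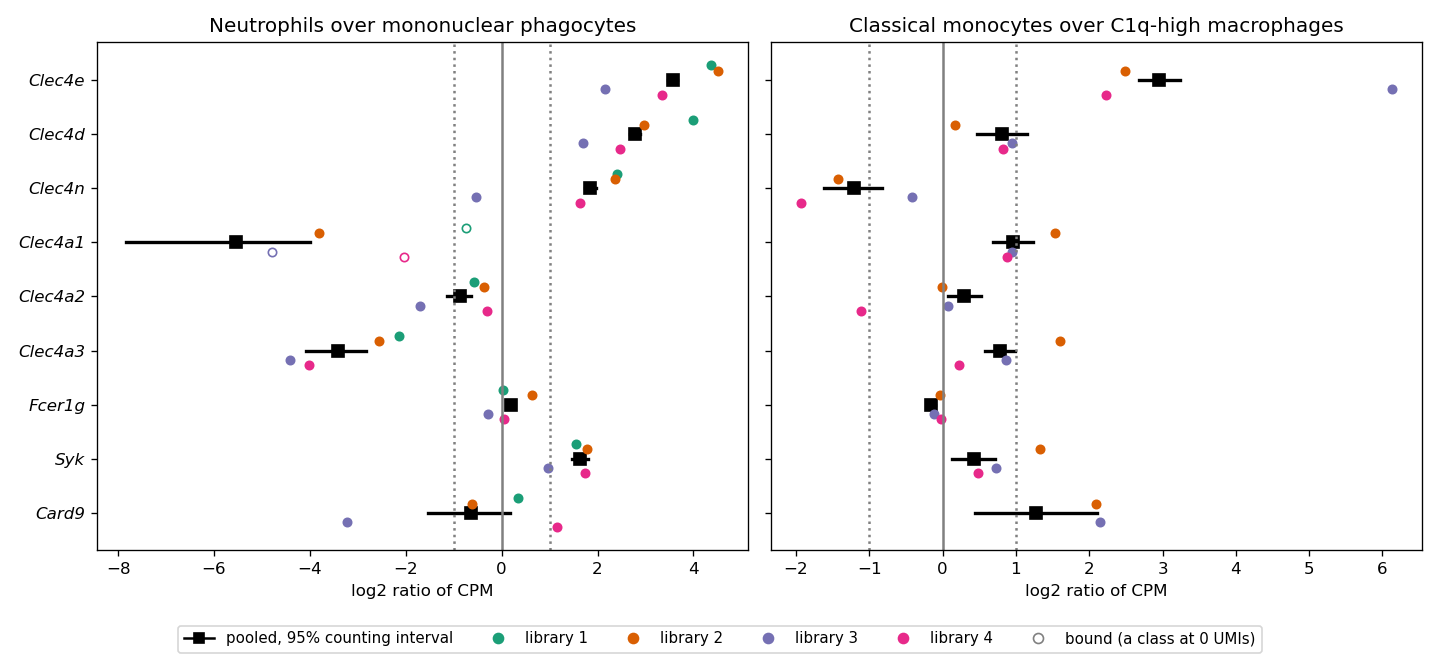
The log2 ratio of CPM (x axis) for each of the 9 genes in neutrophils over mononuclear phagocytes (left) and in classical monocytes over C1q-high macrophages (right), with black squares and bars for the pooled ratio and its 95% counting interval, coloured points for single libraries, open points for bounds where a class had 0 UMIs, and dotted lines at 2-fold. On the left, Clec4e, Clec4d and Syk points lie right of 0 in each library, Clec4n of library 3 lies left of 0, and Clec4a1 and Clec4a3 lie left of 0.

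By the 2-fold rule, 4 of 9 members (Clec4e, Clec4d, Clec4n and Syk) were higher in neutrophils, against a background of 15.9% of 8061 genes. Lower were 2 of 9 (Clec4a1 and Clec4a3), against 19.6%. The median log2 ratio was 0.19 over the members and −0.11 over all genes compared. Without library 2, Clec4n was no longer called, and Clec4a2 was called lower with a log2 ratio of −1.11.

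**Figure D3:**
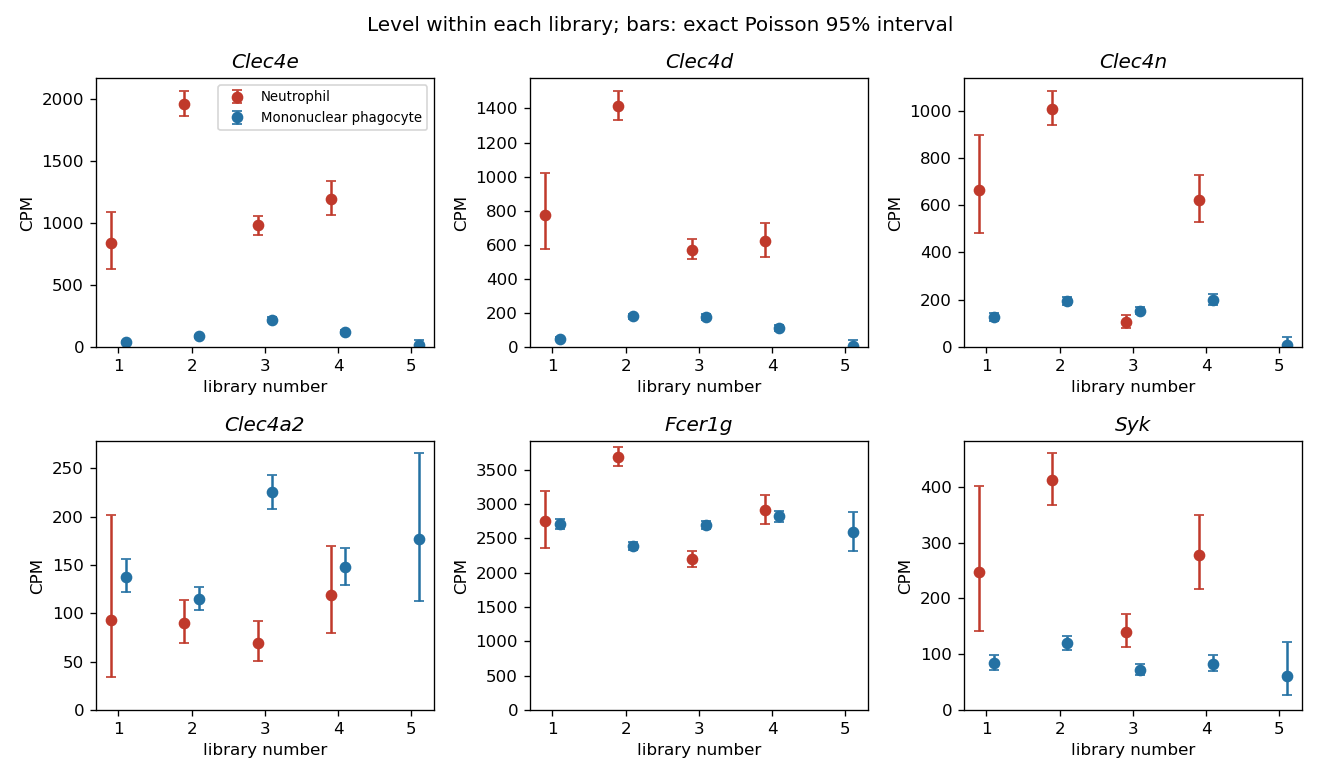
CPM (y axis, from 0) of 6 of the genes in neutrophils (red) and mononuclear phagocytes (blue) of each library (x axis, library number), with exact Poisson 95% intervals and classes under 20 cells left out. Clec4e and Clec4d of neutrophils lie above those of phagocytes in libraries 1 to 4, while Clec4n of neutrophils falls to 106 CPM in library 3.

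As shares of the UMIs of the 6 lectins, which count 3′ ends and are not divided by length, the make-up of the classes differed as well. Clec4e made up 46.4% of the 5389 lectin UMIs of neutrophils (45.0 to 47.7), Clec4d 31.0% and Clec4n 19.4%. The 3 Clec4a genes together gave the rest, led by Clec4a2 with 2.78%. In mononuclear phagocytes no lectin passed 20.7% of 7780 UMIs, and Clec4e stood at 15.01% (14.2 to 15.8).

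**Figure D4:**
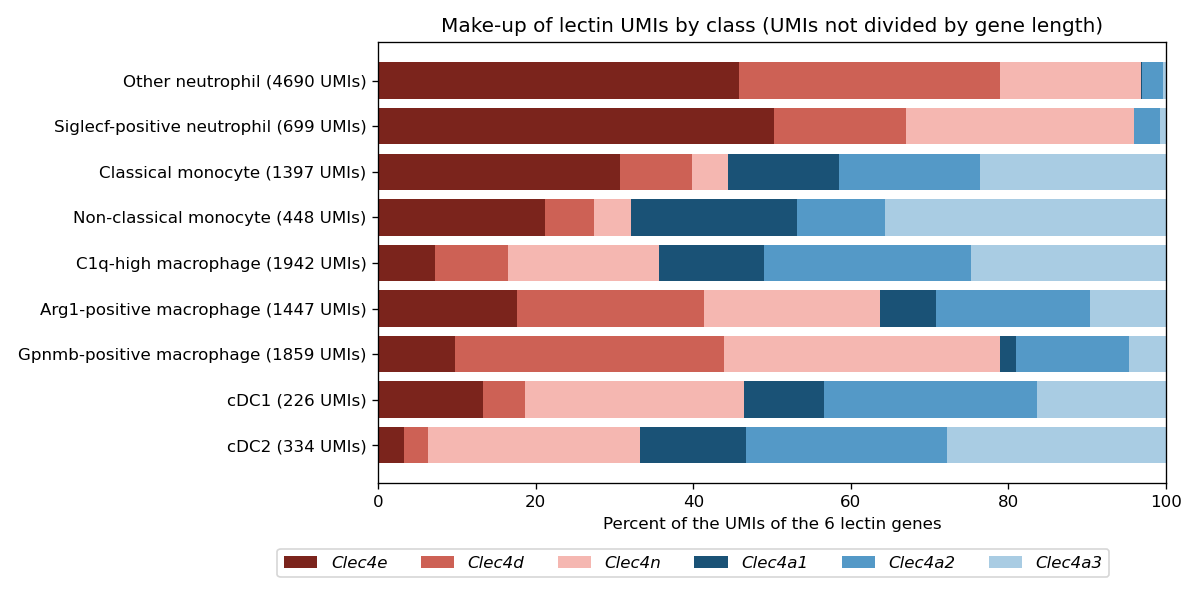
Each bar splits the lectin UMIs of a class (number in brackets) into the percent from each of the 6 lectin genes, in reds for Clec4e, Clec4d and Clec4n and in blues for the Clec4a genes. Reds fill nearly all of the neutrophil bars, blues most of the monocyte, C1q-high macrophage and cDC2 bars, and Clec4d with Clec4n most of the Gpnmb-positive bar.

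Among mononuclear phagocytes, Mincle was highest in classical monocytes. Classical monocytes (276 cells) held 414 CPM of Clec4e (376 to 455) and non-classical monocytes (115 cells) 276 CPM (224 to 338). Arg1-positive macrophages (205 cells, led by their gate markers Pf4, Ccl7 and Ccl2) held 234 CPM, an interval that overlaps that of non-classical monocytes. Without library 3, Arg1-positive macrophages (248.7 CPM) stood above non-classical monocytes (207.9 CPM), and classical monocytes held 356.3 CPM. Gpnmb-positive macrophages (225 cells) were at 80.5 CPM, C1q-high macrophages (649 cells) at 53.3 CPM, cDC1 at 49.5 CPM, mature dendritic cells at 26.4 CPM and cDC2 at 9.82 CPM of Clec4e. The mature dendritic cell value is 11 UMIs in 3 of 77 cells and falls to 2.68 CPM (1 UMI) without library 4, under cDC2. Without library 2 it rises to 54.7 CPM, above cDC1 (51.6 CPM) and C1q-high macrophages (48.7 CPM) without that library. The cDC1 value is 30 UMIs in 13 of 88 cells, with 0 UMIs in library 1, and falls to 32.4 CPM without library 4. Clustering of the same cells placed 43 of these 88 in a cDC1 cluster, 15 in C1q-high macrophages and 11 in cDC2. Whether cells of other kinds take part in the cDC1 levels was not tested. Between classical monocytes and cDC2 the range was 42.2-fold. Libraries supplied these classes unevenly, with 68.1% of classical monocytes and 76.6% of Arg1-positive macrophages from library 3.

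MCL and Dectin-2 had another order. Clec4d was at 316 CPM (284 to 351) in Arg1-positive and 282.5 CPM (261 to 305) in Gpnmb-positive macrophages, whose intervals overlap. It was at 123 CPM in classical monocytes, 69.8 CPM in C1q-high macrophages and 8.93 CPM (10 UMIs) in cDC2. Without library 3 the cDC2 value was 5.70 CPM (5 UMIs). Mature dendritic cells had 0 Clec4d UMIs, where 3 would be 7.19 CPM. Clec4n was at 297 CPM in Arg1-positive and 289.6 CPM in Gpnmb-positive macrophages, 143 CPM in C1q-high macrophages and 61.8 CPM in classical monocytes. Without library 2, Clec4d in C1q-high macrophages fell to 43.7 CPM. Gpnmb-positive macrophages were thus near Arg1-positive macrophages in Clec4d and Clec4n, with less Clec4e (80.5 against 234 CPM). Clec4d was also above Clec4e in Arg1-positive macrophages. Clec4n was also above Clec4e in C1q-high macrophages (143 against 53.3 CPM) and cDC2 (80.35 against 9.82 CPM). In libraries 1 to 4 Gpnmb-positive macrophages held 222, 426, 175 and 139.9 CPM of Clec4d, beside 42.2, 114, 82.1 and 26.5 CPM of Clec4e, with Clec4d above Clec4e each time. Without library 2 their pooled Clec4d was 173 CPM. Their leading genes included Upk3a and Psca, which are known from urothelium. Clustering of the same cells placed 94 of the 225 in a cluster of the same name and 57 in an Arg1-positive macrophage cluster. Whether urothelial cells or Arg1-positive macrophages take part in these values was not tested.

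Clec4a1 and Clec4a3 were highest in non-classical monocytes, the patrolling monocytes of the circulation. Clec4a3 was at 466 CPM (396 to 544) there, 318 CPM in classical monocytes, 184 CPM in C1q-high macrophages, 129 CPM in Arg1-positive and 38.7 CPM in Gpnmb-positive macrophages, and none of these 5 intervals overlap. Clec4a1 followed with 273.5, 191, 98.6, 94.6 and 17.4 CPM in the same classes, with overlap between C1q-high and Arg1-positive macrophages. Without library 3, Clec4a1 stood at 32.7 CPM in Arg1-positive and 5.37 CPM in Gpnmb-positive macrophages, and Clec4a3 at 25.1 CPM in Gpnmb-positive macrophages. Clec4a2 was at 259 CPM in Arg1-positive macrophages, 241.4 CPM in classical monocytes and 196 CPM in C1q-high macrophages, with overlapping intervals between neighbours. This order rests on library 3, without which the 3 classes held 144, 128 and 191 CPM, with C1q-high macrophages highest. Mature dendritic cells (77 cells, led by their gate marker Ccr7) had the lowest pooled level among the named phagocyte classes for 6 members. These were Clec4d, Clec4n, Clec4a1, Clec4a2, Clec4a3 and Fcer1g. For Clec4d, Clec4n and Clec4a1 the interval overlapped that of the next of these classes. Without library 3, non-classical monocytes were lower for Clec4n (7.17 against 36.3 CPM) and Gpnmb-positive macrophages for Clec4a1 (5.37 against 12.9 CPM). Without library 2, Clec4a1 was lower in cDC1 (25.8 CPM) and Gpnmb-positive macrophages (25.9 CPM) than in mature dendritic cells (27.4 CPM), and Clec4a1 had 0 UMIs in mature dendritic cells without library 1. In library 1 taken singly, cDC1 were below mature dendritic cells for Fcer1g (777 against 925 CPM), Clec4a3 and Clec4a1. In them Fcer1g was at 675 CPM, against 3384 CPM in non-classical monocytes.

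Classical monocytes and C1q-high macrophages were compared directly, since the first are known as blood-borne cells and the second resemble the resident macrophages of the kidney. Clec4e was 7.77-fold higher in classical monocytes, or 2.96 (2.68 to 3.25) on the log2 scale. In libraries 2, 3 and 4 taken singly, classical monocytes held 341, 439 and 342 CPM of Clec4e and C1q-high macrophages 60.7, 6.247 and 72.8 CPM, without overlap. The 6.247 CPM of library 3 is 1 UMI in 49 cells. Card9 was at 25.1 against 10.4 CPM (log2 ratio 1.28, 0.44 to 2.11), from 26 and 27 UMIs, and its ratio fell to 0.86 without library 3. Clec4n was lower in classical monocytes, at −1.21 (−1.61 to −0.82) on the log2 scale, and in libraries 2, 3 and 4 taken singly the ratio was −1.42, −0.41 and −1.93. With Leiden clusters in place of gates it was −0.64, and with the mean of single-cell levels −0.78, both under the 2-fold limit. The other 6 members stayed within 2-fold over the pooled cells, from −0.16 for Fcer1g to 0.96 for Clec4a1. In library 2 taken singly, Clec4a1 (1.53), Clec4a3 (1.60) and Syk (1.33) were past 2-fold. Clec4a2 stood at −1.11 (−1.84 to −0.46) in library 4, opposite in sign to its pooled 0.30, and the pooled ratio without library 3 was −0.58. By the rule, 2 of 9 members were higher, against 12.3% of 7612 genes, and 1 of 9 was lower, against 9.49%. The median was 0.79 over the members and 0.20 over all genes.

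Neutrophils were split by whether a Siglecf UMI was found, since Siglecf marks a neutrophil state of injured tissue. There were 131 Siglecf-positive cells, and the other 1055 neutrophils include cells in which the transcript was missed. Neutrophil markers summed to 46080 CPM in Siglecf-positive cells and 93500 CPM in the others, with medians of 46 and 90 marker UMIs per cell. The part of this difference in the ratios below was not tested. Clec4e was at 1769 CPM (1588 to 1964) in Siglecf-positive and 1395 CPM (1336 to 1455) in other neutrophils, which is 0.34 (0.18 to 0.51) on the log2 scale. In libraries 2 and 4, the only ones with at least 20 cells of each kind, the ratio was 0.25 and −0.19. Clec4d was at 589.6 against 1008 CPM (log2 ratio −0.77, −1.06 to −0.50), with −0.93 and −1.27 in libraries 2 and 4 taken singly. Clec4n was at 1023 against 547 CPM (0.90, 0.68 to 1.13), with 0.73 and −0.38 within these libraries. Of these 3 lectins, Clec4d alone had the same direction in the pooled cells and in each of the 2 libraries. Fcer1g (0.04, −0.09 to 0.16) and Syk (0.28, −0.11 to 0.66) had intervals that include 0.

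By the 2-fold rule 2 of 9 members, Clec4a3 and Card9, were higher in Siglecf-positive neutrophils, against 17.8% of 8199 genes, and 0 of 9 were lower, against 8.1%. These calls rest on 5 and 3 UMIs in Siglecf-positive cells and their intervals include 0, at −0.68 to 2.59 and −1.40 to 3.00. Clec4a1 could not be compared, with 0 and 3 UMIs. The median log2 ratio of the 8 members compared was 0.42, and that of all genes was 0.29.

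Fcer1g and Syk were also found in lymphocytes, in which lectin UMIs were few. Over 1114 T cells there were 8 UMIs of Clec4d, 5 each of Clec4e and Clec4n, 1 of Clec4a1 and 0 of Clec4a2 and Clec4a3, and no lectin had more than 2 UMIs in B cells. NK cells, whose activating Fc receptor pairs with the gamma chain, held 2381 CPM of Fcer1g over 168 cells, with 1881 to 3834 CPM in libraries 1 to 4. In the same cells Clec4e, Clec4a1 and Clec4a2 had 1 UMI each, and Clec4d, Clec4n, Clec4a3 and Card9 had 0, where 3 UMIs would be 9.63 CPM. B cells, in which Syk acts downstream of the antigen receptor, held 229 CPM of Syk (187 to 277) over 303 cells. B cells had 8 Fcer1g UMIs, all in library 2, and 0 Card9 UMIs, where 3 would be 6.66 CPM. T cells held 132 CPM of Fcer1g, with 9.58 CPM in library 3 and 67.1 to 171 CPM in the other 4, and 0.848 CPM of Syk. NK cell markers summed to 1603 CPM in the T cell class and 12240 CPM in NK cells, and ambient Fcer1g was at 65.5 and 101 CPM in libraries 1 and 2. The part of either in the T cell value was not tested. After thinning, 84.3% of NK cells, 5.30% of T cells and 0.375% of B cells had a Fcer1g UMI.

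In single cells thinned to equal depth, more of the 6 lectins were detected per cell in neutrophils than in phagocytes. Together the 6 lectins were at 3099 CPM in neutrophils and 808.9 CPM in phagocytes. A higher level alone raises the number detected, so these numbers do not test whether lectins occur together beyond their levels. Before thinning, the median depth was 1281.5 UMIs in neutrophils and 3934 UMIs in phagocytes. The 1186 neutrophils then held 5389 lectin UMIs and the 1929 phagocytes 7780. At 1000 UMIs per cell, neutrophils (907 cells) held on average 1.57 of the 6 lectins, and 17.6% held 3 or more. Mononuclear phagocytes (1838 cells) held 0.714, and 4.62% held 3 or more. Classical monocytes and Arg1-positive macrophages held 1.22 and 1.13, C1q-high macrophages 0.651 and cDC2 0.237. Thinning left out 370 myeloid cells with fewer UMIs, and kept 907 of 1186 neutrophils and 1838 of 1929 phagocytes. Proximal tubule cells, which should lack the receptors, held 0.00340.

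Over the thinned neutrophils of all libraries, 59.3% of cells with a Clec4e UMI (55.1 to 63.4) and 45.0% of those without one (39.7 to 50.5) had a Clec4d UMI. Within library 2 these shares were 66.2% and 64.2%, with intervals that overlap almost fully. Within libraries 3 and 4 they were 48.6% against 37.4% and 48.6% against 37.5%, again with overlapping intervals. For Clec4n the shares were 48.4% and 46.3% in library 2, 9.60% and 8.63% in library 3, and in library 4 29 of 72 cells against 14 of 56, where the intervals in percent (28.9 to 52.5 and 14.4 to 38.4) overlap. The pooled intervals were apart and those within libraries were not, and library 2 had the highest neutrophil level of each of the 3 genes. The part of the library in the pooled difference was not tested.

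Of 47 other genes of the pathway, 42 could be compared between neutrophils and mononuclear phagocytes, and 11 were higher and 10 lower in neutrophils, beside 15.9% and 19.6% of all genes compared. Among the other lectins, Clec5a, a DAP12-coupled receptor, was higher (174 against 37.5 CPM, log2 2.21), and 5 of 7 were lower. They include Mgl2 (1.15 against 239 CPM) and Clec4b1, another gene of the cluster (1.15 against 77.9 CPM). Mrc1 and Clec10a had 0 UMIs in neutrophils. Among ITAM receptors and adaptors, Tyrobp (DAP12) was at 6335 against 2612 CPM and Trem1, which pairs with it, at 912 against 23.4 CPM. Fcgr1, the high-affinity IgG receptor that pairs with the gamma chain, was at 1.15 against 135.5 CPM. Of 12 genes downstream of Syk, 1 was higher, the NF-kB inhibitor Nfkbia (3542 against 1177 CPM), and 0 were lower. Of 6 brakes, Cblb and the inhibitory Fc receptor Fcgr2b (36.8 against 225 CPM) were lower. Of 8 outputs compared, 5 were higher, among them Cxcl2 (13760 against 2871 CPM), Ptgs2 (691 against 106 CPM) and Nlrp3 (739 against 195 CPM). Cxcl1 and Il6 were lower.

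Between classical monocytes and C1q-high macrophages, 42 of the 47 genes could be compared, and 3 were higher and 8 lower in monocytes, beside 12.3% and 9.49% of all genes compared. Higher were Trem1, the Src family kinase Fgr and Il6. Lower were the lectins Mgl2, Mrc1 and Clec4b1, the IgG receptor Fcgr4, and the outputs Tnf (47.3 against 246 CPM), Ccl3 (149 against 1048 CPM), Cxcl1 and Il10. Between Siglecf-positive and other neutrophils, 3 of 36 genes were higher and 2 lower, beside 17.8% and 8.1% of all genes compared. Of these 5 genes, only Cxcl1 (30.2 against 80.5 CPM) had an interval that leaves out 0.

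Likeness of pattern was measured as Pearson's r of log2(CPM + 1) over 21 classes, against 6921 genes. These are a selection from the 32285 genes of the matrix, with a limit of 50 CPM and without the members. Whether a gene left out lies nearer was not tested. The classes share libraries and depth, and r is given as a description. Classes outside the myeloid cells held few lectin UMIs, so a high r need not mean the same order within myeloid cells. Clec4e and Clec4a2 had r = 0.905, with log2 ratios of neutrophils over mononuclear phagocytes of 3.57 and −0.88. Among the genes compared, nearest to Clec4e were Cd300ld (r = 0.970), Sirpb1c (0.962) and Mefv (0.957). Nearest to Clec4d were B430306N03Rik (0.977), Tlr13 (0.971) and Clec5a (0.958), and nearest to Clec4n were Slc7a11 (0.972), Pilra (0.970) and Arl11 (0.970). Clec4a1 was most like Tifab (0.930), Clec4a2 most like Mpeg1 (0.974) and Clec4a3 most like Clec12a (0.956). Fcer1g was most like Tyrobp (0.972), the other ITAM adaptor, Syk most like Pik3ap1 (0.956) and Card9 most like Gpr35 (0.957). Among the members, Clec4e was most like Clec4n (0.933) and Clec4d (0.925) and least like Clec4a1 (0.587). Clec4a3 was most like Clec4a2 (0.953), followed by Card9 (0.930) and Clec4a1 (0.913).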

How the data were processed

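The authors aligned 10x 3′ reads with Cell Ranger 6.0 to mm10, per the labels and methods, and deposited raw UMI counts per gene and barcode in 1 unfiltered matrix of 5 libraries, whose suffix is not tied to a condition by the labels. The members and gene lists were chosen with earlier results of these data known, and gate limits were set after marker values were seen, never from the members.

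Cells were called per library against the ambient profile (barcode ranks 45000 to 90000, 10000 simulations, at least 500 UMIs, adjusted p 0.01), and kept with at least 200 genes and at most 25% mitochondrial UMIs. Of 70164 called barcodes, 57511 were kept, with 51076289 to 94748407 UMIs per library. No doublet caller was run. Mixed cells (1686, with markers of more than 1 lineage or with tubule transcripts over the limit) and cells without a class (4897) were left out. Apart from proximal tubule, a lineage needed at least 3 markers, 5 times the ambient marker level and marker transcripts at no less than 1000 CPM. Proximal tubule cells needed at least 5 markers, 0.5 times the ambient marker level and no other lineage gate passed. Finer phagocyte classes needed at least 3 markers, without an ambient or CPM limit. Each phagocyte went to the class of its highest marker share, scaled to the 95% quantile of that share. UMIs were summed per class. With 1 pooled sample there were no replicates and no tests, so differences are named by size (2-fold, 10 CPM in 1 class). Shares of cells have exact Clopper-Pearson 95% intervals and were thinned to 1000 UMIs per cell. Genes named by rule are the members, genes of the 47 listed for the pathway, and up to 3 genes nearest in pattern to each member. Leading genes of a class (such as Pf4, Upk3a or Ccr7) are named to describe that class, and were chosen after their values were seen. Pf4, Ccl7, Ccl2 and Ccr7 are gate markers of the classes they lead, so their lead follows from the gate. The calling and ratio steps were tested on simulated data. Alternatives were other cell, gate and mitochondrial limits, Leiden clusters, mean of single-cell levels, equal weight per library, and leaving out each library. Python 3.11.15, numpy 2.4.6, scipy 1.17.1, pandas 2.3.3, scanpy 1.11.5, leidenalg 0.10.2 and matplotlib 3.10.9 were used.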

Additional observations from a re-analysis of the deposited data

How the results depend on the processing

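Of 61 alternative counts of members past 2-fold, 53 stayed within 1.5 times the reported count. Each count adds higher and lower members, so it does not see a swap of members. Without library 2, for example, Clec4n left the neutrophil comparison and Clec4a2 entered it. For myeloid against tubule cells the lowest member ratio of any alternative was log2 7.29 (Clec4a1), far past the limit, so that count says little about stability. Of the single-gene ratios recomputed, 420 stayed within the reported counting interval and 113 moved beyond it, and no member ratio past 2-fold changed sign. The 8 that moved all concern Siglecf-positive against other neutrophils, where 1 member in place of 2 passed with at least 1000 UMIs per cell, with gates at 2 times ambient, with cells of 2 lineages kept, with the mean of single-cell levels, with equal weight per library, with Siglecf called after thinning, and without library 1 or library 2. Leaving out each library in turn gave 6 to 7 members for neutrophils against mononuclear phagocytes, 1 to 3 for Siglecf-positive neutrophils, 2 to 4 for classical monocytes against C1q-high macrophages, and 9 for myeloid against tubule cells.

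Chosen after seeing the data, each library was left out of the level of each member in 8 phagocyte classes, and 23 of 72 levels moved by over 1.5 times, 11 without library 2 and 10 without library 3.

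For Clec4e, the log2 ratio of neutrophils over mononuclear phagocytes lay between 2.84, with cells of 2 lineages kept, and 4.43, without library 3. With cells of 2 lineages kept, Clec4a2 (−1.53) and Card9 (−1.36) were called lower in neutrophils, Fcer1g stood at −0.44, and Clec4n (1.15) and Syk (1.01) stayed past 2-fold. The Card9 ratio was −1.25 without library 4 and 0.03 without library 3. Clec4n in classical monocytes over C1q-high macrophages stood at −0.64 with Leiden clusters in place of gates. The causes were not tested. Depth limits Clec4a1 and Card9 in neutrophils, with 3 and 14 UMIs. Cell classes of the same library were compared as ratios within it, without a test.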
